A study of Mus musculus with 21 samples.

Results

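The genes described here encode the initiation and elongation factors of cytosolic protein synthesis. They were chosen by name alone: every probe set assigned to a single gene whose symbol begins with Eif1 to Eif6, Eef1 or Eef2 was taken, which includes the 4E-binding proteins (Eif4ebp) and the eIF2α kinases (Eif2ak). Of 8251 genes tested, 49 met this rule, from 66 probe sets, and a gene with several sets was represented by the set with the highest mean over all arrays. Among factors of the same families, Eif1, Eif1ad, Eif2s1, Eif2b3, Eif3g, Eif3h, Eif3i, Eif4a3, Eif4e3, Eif4ebp3 and Eif4g1 were not analysed here. Nor were Eif5a2, Eef1e1, Eef1akmt2 and Eef2kmt.

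RNA came from B16-F10, an established mouse melanoma cell line of C57BL/6J origin, and was measured on 21 Affymetrix U74Av2 arrays. Cells kept for 24 h at 1% oxygen (hypoxia) formed 3 sets, each with 3 hypoxia arrays and 2 control arrays at 21% oxygen: a Billups-Rothenberg chamber set, and experiments 1 and 2, which used an incubator with regulated oxygen flow. In experiment 3, cobalt chloride (CoCl2), used by the study to mimic hypoxia, was given for 24 h at 100 µM or 200 µM, with 2 arrays per dose and 2 control arrays. The chamber controls were assigned to the chamber set because neither carries an experiment number in its title, and the labels give no culture time for any control. All arrays of a group are labelled biological replicas, but nothing says that each came from its own culture, so a p-value here reflects only how far the replicate arrays scatter, which may be technical scatter.

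The deposited values are log2 RMA signals, and all differences are log2 differences, treated minus control of the same set, ± the standard error of the fitted model. A gene was called changed where its adjusted p was under 0.05 over all 8251 genes, and the words rose and fell are used only of called genes. The melanocyte markers Pmel (9.10 to 12.6 over the 21 arrays), Dct (8.00 to 11.9) and Sox10 (7.97 to 10.2) were bright, and Mitf read 4.0 to 7.14. Markers of other cell types were mixed: Ptprc and Lyz2 of leukocytes, Lum and Fap of fibroblasts and Cdh5 and Tek of endothelium stayed at or under 3.60, whereas Col1a2 read 7.65 to 8.51, Cd14 6.62 to 7.29, Cd3e 6.00 to 6.82 and Pecam1 5.94 to 6.44. All 8 melanocyte markers measured fell at both CoCl2 doses. Experiment 3 stood apart in RNA quality, read as the Actb 3′ probe set minus its 5′ probe set, which is known to grow as RNA is degraded. It lay between 0.15 and 0.50 on all 15 hypoxia-set arrays. The experiment 3 arrays gave 1.41 and 1.62 in controls, 2.36 and 2.16 at 100 µM and 1.47 and 0.50 at 200 µM. The measure thus differed between doses without following their order. It was highest at 100 µM, and of the 200 µM arrays only array 2 lay below the controls by Actb. The same difference for Gapdh was 2.21 and 0.92 in controls and 1.44 and 2.18 at 100 µM. At 200 µM the Gapdh difference was 0.45 and 0.12, so by Gapdh both 200 µM arrays lay below both controls. Gapdh was not used as a covariate. The part of RNA quality in the CoCl2 results was not tested beyond the Actb covariate values given beside them.

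Translation starts when a small ribosomal subunit carrying eIF1, eIF1A, eIF3, eIF5 and eIF2 with the initiator tRNA is brought to the capped mRNA by the eIF4 factors and scans for a start codon. Cells commonly slow it at either of those steps: eIF2α kinases block the recycling of eIF2 by its exchange factor eIF2B, and 4E-binding proteins hold eIF4E away from the scaffold eIF4G. Elongation is driven by eEF1A, which delivers aminoacyl-tRNA, and by eEF2, which moves the ribosome and is inhibited by the kinase Eef2k. Low oxygen is known to slow protein synthesis largely through phosphorylation of these proteins, which mRNA arrays do not measure.

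Promoter windows were available for 41 of the 49 genes (56 windows, RefSeq, GRCm38.p6). The 250 bases before the start of 5 genes on which the results turn are printed 5′ to 3′ along the gene, with every ACGTG or GCGTG on either strand in capitals, the letters bound by hypoxia-inducible factors in known response elements. On the opposite strand these motifs read CACGT and CACGC, and CACGTG holds ACGTG on both strands.
Eif4ebp2 (chr10:61452670-61452919, minus strand): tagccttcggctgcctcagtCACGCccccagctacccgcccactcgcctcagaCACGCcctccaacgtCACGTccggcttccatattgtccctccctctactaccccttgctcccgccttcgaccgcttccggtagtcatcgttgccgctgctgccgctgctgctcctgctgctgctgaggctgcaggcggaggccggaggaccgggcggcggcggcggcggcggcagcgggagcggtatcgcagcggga
Eif5 (chr12:111537851-111538100, plus strand): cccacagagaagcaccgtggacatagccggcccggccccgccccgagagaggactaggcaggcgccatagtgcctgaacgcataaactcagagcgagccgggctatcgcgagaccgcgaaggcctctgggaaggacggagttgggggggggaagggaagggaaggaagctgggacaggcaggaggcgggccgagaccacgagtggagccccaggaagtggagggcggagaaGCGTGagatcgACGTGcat
Eif4a2 (chr16:23107218-23107467, plus strand): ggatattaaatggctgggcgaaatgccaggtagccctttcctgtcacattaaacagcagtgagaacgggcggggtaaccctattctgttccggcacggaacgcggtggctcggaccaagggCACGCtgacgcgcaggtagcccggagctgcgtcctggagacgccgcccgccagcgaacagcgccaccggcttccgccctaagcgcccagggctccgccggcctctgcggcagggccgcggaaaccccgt
Eif1b (chr9:120492356-120492605, plus strand): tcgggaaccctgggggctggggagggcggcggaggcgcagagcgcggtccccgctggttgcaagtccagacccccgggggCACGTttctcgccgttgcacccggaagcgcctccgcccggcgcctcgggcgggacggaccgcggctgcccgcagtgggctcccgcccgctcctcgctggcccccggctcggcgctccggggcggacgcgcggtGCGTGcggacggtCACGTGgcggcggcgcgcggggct
Eef2 (chr10:81176381-81176630, plus strand): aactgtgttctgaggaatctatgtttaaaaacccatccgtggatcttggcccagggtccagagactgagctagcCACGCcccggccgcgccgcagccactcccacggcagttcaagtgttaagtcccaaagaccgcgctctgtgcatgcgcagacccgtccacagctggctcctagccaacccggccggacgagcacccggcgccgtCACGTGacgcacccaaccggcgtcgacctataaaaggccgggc
The Eif4ebp2 window held 3 such motifs, 230, 197 and 182 bases before the start, and that of Eif5 held 2, at 19 and 8 bases. Eif4a2 had 1, at 129 bases. In Eif1b and Eef2 the pair nearest the start (24 and 23 bases, and 43 and 42 bases) was a single CACGTG read on both strands. Of the 56 windows, 62.5% held ACGTG or GCGTG, against 38.6% of all 32851 windows, and the median GC content was 61.2% against 52.4%. For CACGTG the shares were 19.6% and 6.0%. A match describes the letters and is not a measured binding site: the 5 genes printed include some that were higher and some that were lower in hypoxia.

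Hypoxia moved the 49 genes in both directions. For the mean of the 3 sets, 19 were called, 7 higher and 12 lower, where 32.0% of all genes were called (12.6% higher, 19.5% lower), so the share called was near the background. Their median difference was -0.02, against 0.01 over all genes. The strongest falls were in a repressor of cap-dependent initiation (Eif4ebp2), a scaffold for cap-independent initiation (Eif4g2), a methyltransferase of eEF1A (Eef1akmt1) and the GTPase activator of eIF2 (Eif5), and the strongest rises in a helicase (Eif4a2) and in a start-codon factor (Eif1b). Each of the 19 except Eif2b2 had the same sign in all 3 sets, which choosing them by the mean of those sets favours. Of the 19 calls, 15 held without any single array. For 14 of the 49 genes the array holds several probe sets: in none of the 7 that were called was another set called in the same direction (0 of 7), and 2 that were not called, Eif1ax and Eif4b, had another set that was. No other set of those 7 genes was called in the opposite direction. For Eef1b2, Eif2d, Eif3b and Eif3l the other set was dim, under the 40th percentile of mean signal. The map of log2 differences shows all 49 genes by role.

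**Figure D1:**
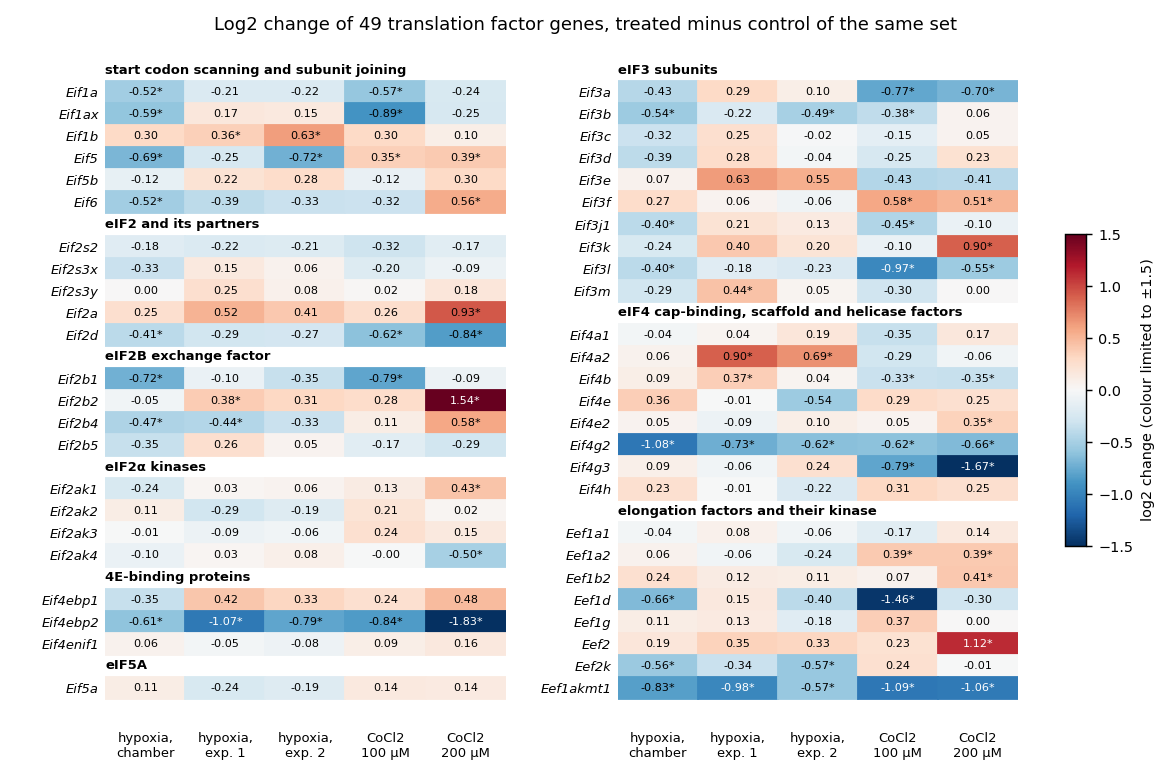
Log2 difference, treated minus control of the same set, for all 49 genes grouped by role, in the 3 hypoxia sets and at both CoCl2 doses; an asterisk marks an adjusted p under 0.05. Eif4ebp2, Eif4g2 and Eef1akmt1 are the 3 genes with an asterisk in every hypoxia set, and no gene in the chamber column has an asterisk on a positive difference.

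Among the 4E-binding proteins, Eif4ebp2 gave the clearest signal. It read 8.83, 9.07 and 8.97 in chamber hypoxia, against 9.55 and 9.57 in chamber controls. In experiment 1 it read 8.43, 8.36 and 8.34 in hypoxia, against 9.42 and 9.48 in controls. In experiment 2 it read 8.65, 8.69 and 8.92 in hypoxia, against 9.77 and 9.31 in controls. Every hypoxia array lay below both controls of its set. The mean difference was -0.82 ± 0.07 (1.77-fold lower, adjusted p = 1.0e-08), and the 3 sets gave -0.61, -1.07 and -0.79. The other probe sets of Eif4ebp2 gave smaller differences: a second set gave 0.22 in the chamber, -0.37 in experiment 1 (adjusted p = 0.034 over all probe sets) and -0.31 in experiment 2, and the dimmest set -0.07, -0.45 (adjusted p = 0.031) and -0.02. Both were thus lower with a call in experiment 1, and neither was called for the mean of the 3 sets (-0.15 and -0.18). With the mean of the 3 probe sets the difference was -0.39 (adjusted p = 2.6e-06). Eif4ebp1, the best studied member of the family, was not called: its differences were -0.35 in the chamber, 0.42 in experiment 1 and 0.33 in experiment 2, with a mean of 0.13 ± 0.11 (adjusted p = 0.42). Eif4enif1, which carries eIF4E into the nucleus, gave -0.02.

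The eIF4 factors showed 1 rise and 1 fall among 8 (all genes 12.6% higher and 19.5% lower). Eif4g2, which resembles the scaffold eIF4G but lacks the site for the cap-binding protein, read 6.28, 6.46 and 6.75 in chamber hypoxia, against 7.60 and 7.56 in controls. It read 6.44, 6.72 and 6.36 in hypoxia of experiment 1, against 7.14 and 7.34 in controls, and 6.58, 6.69 and 6.63 in hypoxia of experiment 2, against 7.24 and 7.27 in controls. No hypoxia array reached a control. Its mean difference was -0.81 ± 0.09 (1.76-fold lower, adjusted p = 1.4e-07). Eif4a2, a paralog of the mRNA-unwinding helicase eIF4A1, went the other way in the incubator: hypoxia arrays read 9.57, 9.93 and 9.83 in experiment 1, against 8.74 and 9.02 in controls, and 9.42, 9.44 and 9.25 in experiment 2, against 8.79 and 8.57 in controls. In the chamber it read 9.39, 9.04 and 9.43 in hypoxia, against 9.26 and 9.20 in controls, so groups overlapped there and nowhere else. The mean difference of Eif4a2 was 0.55 ± 0.08 (1.47-fold, adjusted p = 7.0e-06), made up of 0.06 in the chamber, 0.90 in experiment 1 and 0.69 in experiment 2. Eif4a1 itself gave 0.06 and Eif4g3, a second eIF4G, gave 0.09. The cap-binding protein gene Eif4e, whose probe sets are among the dimmer ones of the array, gave -0.06 ± 0.12 (adjusted p = 0.76).

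**Figure D2:**
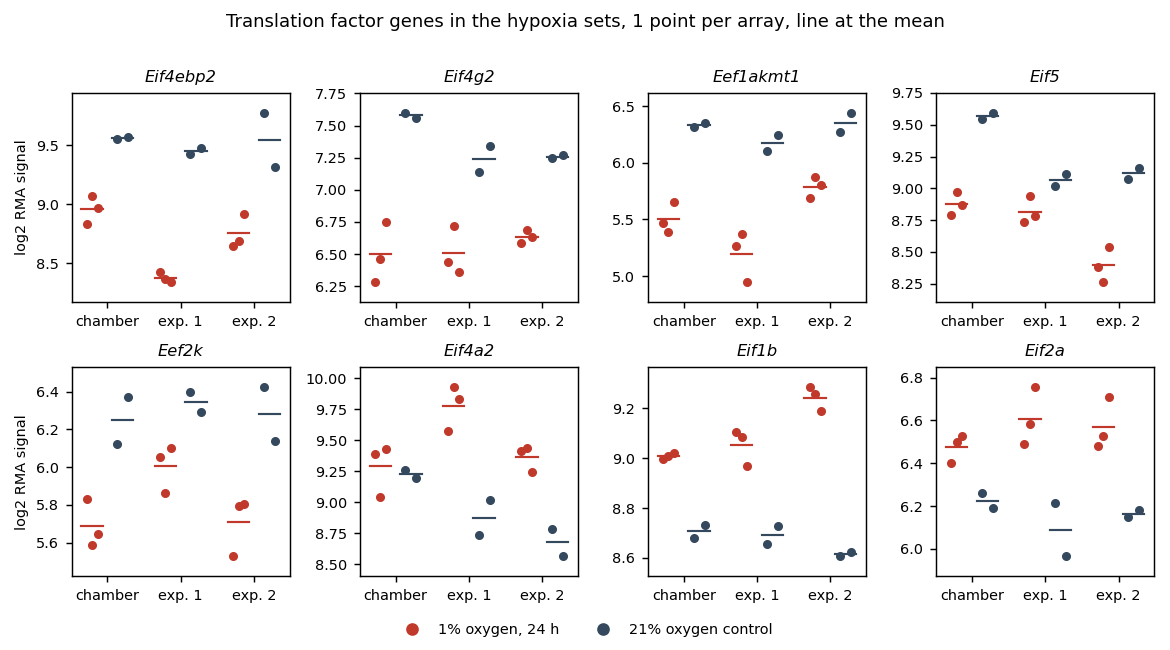
Log2 RMA signal of 8 genes on each of the 15 arrays of the hypoxia sets, 1% oxygen left of 21% oxygen within each set, with a line at each group mean. Points of the groups are apart in all 3 sets for every gene shown except Eif4a2, whose chamber arrays overlap.

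Of 6 factors for start-codon scanning and subunit joining, 1 rose and 3 fell (all genes 12.6% and 19.5%). Eif5, which triggers GTP hydrolysis by eIF2 once the start codon is found, read 8.79, 8.97 and 8.87 in chamber hypoxia, against 9.54 and 9.59 in controls. In experiment 1 it read 8.73, 8.94 and 8.78 in hypoxia, against 9.02 and 9.11 in controls, and in experiment 2 8.38, 8.27 and 8.54 in hypoxia, against 9.07 and 9.16 in controls. The groups were apart in each set, and the mean difference was -0.55 ± 0.06 (1.47-fold lower, adjusted p = 4.2e-07). Eif1b, a paralog of the start-codon fidelity factor eIF1, read 9.00, 9.01 and 9.02 in chamber hypoxia, against 8.68 and 8.73 in controls. It read 9.11, 9.08 and 8.97 in hypoxia of experiment 1, against 8.66 and 8.73 in controls, and 9.28, 9.26 and 9.19 in hypoxia of experiment 2, against 8.61 and 8.62 in controls. All 9 hypoxia arrays exceeded all 6 controls, with a mean difference of 0.43 ± 0.07 (1.35-fold, adjusted p = 4.0e-05). Eif6, which keeps free large subunits from joining, fell (-0.41 ± 0.11, adjusted p = 0.0040), as did Eif1a, a paralog of the scanning factor eIF1A (-0.32 ± 0.06, adjusted p = 0.00030). Eif1ax, the gene of eIF1A itself, was not called on its brighter probe set (-0.09), but its other set fell by 0.54 (adjusted p = 9.8e-06 over all probe sets). That set read 5.36, 5.55 and 5.15 in chamber hypoxia, against 5.97 and 6.04 in controls, and was called lower in all 3 sets (-0.65, -0.42 and -0.54) and at both CoCl2 doses (-1.19 and -1.02). Eif5b, the GTPase of subunit joining, gave 0.13 and was not called.

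For eIF2 and its partners, the subunit genes Eif2s2 (-0.20), Eif2s3x (-0.04) and the dim Eif2s3y (0.11) were not called. Eif2a, a separate protein that can deliver initiator tRNA without eIF2, read 6.40, 6.50 and 6.53 in chamber hypoxia, against 6.26 and 6.19 in controls. It read 6.49, 6.58 and 6.75 in hypoxia of experiment 1, against 6.21 and 5.97 in controls, and 6.48, 6.53 and 6.71 in hypoxia of experiment 2, against 6.15 and 6.18 in controls. The groups were apart in all 3 sets. The mean difference of Eif2a was 0.39 ± 0.10 (1.31-fold, adjusted p = 0.0056), although no single set was called. Eif2d, another non-canonical tRNA delivery factor, fell by 0.32 ± 0.07 (adjusted p = 0.00044), whereas its dimmer second probe set gave 0.12.

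The 4 eIF2B genes measured split by subunit, and Eif2b3 (γ) was not analysed here. Eif2b4 (δ) fell by 0.41 ± 0.07 (adjusted p = 7.4e-05) and Eif2b1 (α) by 0.39 ± 0.09 (adjusted p = 0.0015). The β gene, Eif2b2, read 7.54, 7.32 and 7.60 in chamber hypoxia, against 7.49 and 7.57 in controls. It read 7.57, 7.61 and 7.51 in hypoxia of experiment 1, against 7.24 and 7.14 in controls, and 7.57, 7.46 and 7.30 in hypoxia of experiment 2, against 7.13 and 7.12 in controls. The groups overlapped in the chamber and were apart in the incubator. Eif2b2 rose by 0.21 ± 0.07 (adjusted p = 0.021), with -0.05 in the chamber, 0.38 in experiment 1 and 0.31 in experiment 2, and its call was lost without chamber control 1 (adjusted p = 0.065) or experiment 1 control 2 (adjusted p = 0.066). Eif2b5 (ε), the catalytic subunit, gave -0.01. None of the 4 eIF2α kinases was called, where 32.0% of all genes were. Eif2ak1 (the heme-regulated kinase) gave -0.05 (adjusted p = 0.65) and Eif2ak2 (the double-stranded RNA kinase) -0.12 (adjusted p = 0.26). Eif2ak3, the kinase of the endoplasmic reticulum stress response also called PERK, gave -0.05 ± 0.08 (adjusted p = 0.71), and Eif2ak4, the amino acid sensor GCN2, gave 0.01 ± 0.07 (adjusted p = 0.97). Except for Eif2ak1 these kinases lay under the 40th percentile of mean signal.

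Of 10 subunits of eIF3, the large scaffold that binds the small ribosomal subunit, 2 fell and 1 rose (all genes 19.5% and 12.6%). Eif3b, part of the core, read 9.62, 9.54 and 9.44 in chamber hypoxia, against 10.02 and 10.12 in controls. In experiment 1 it read 9.33, 9.59 and 9.44 in hypoxia, against 9.62 and 9.74 in controls, and in experiment 2 9.37, 9.38 and 9.17 in hypoxia, against 9.96 and 9.64 in controls. The groups were apart in each set, and the mean difference was -0.42 ± 0.07 (1.34-fold lower, adjusted p = 8.0e-05). Eif3l fell by 0.27 ± 0.08 (adjusted p = 0.011). Eif3e read 6.58, 6.80 and 6.85 in chamber hypoxia, against 6.71 and 6.64 in controls. It read 6.63, 6.77 and 6.45 in hypoxia of experiment 1, against 6.14 and 5.82 in controls, and 6.15, 6.25 and 6.63 in hypoxia of experiment 2, against 5.25 and 6.35 in controls. Only in experiment 1 were the groups apart. Eif3e rose by 0.42 ± 0.15 (adjusted p = 0.040), but without experiment 2 control 1, its lowest array, the difference was 0.23 (adjusted p = 0.25). The call was lost without any of 9 arrays (adjusted p = 0.061 to 0.25), and a second Eif3e probe set gave -0.03. The means of the other 7 subunits lay between -0.05 (Eif3d) and 0.12 (Eif3k), but the sets differed. Of the 10 subunits, 2 were above 0 in the chamber, 8 in experiment 1 and 5 in experiment 2. Their medians were -0.35, 0.26 and 0.01 in these sets, against 0.07, -0.03 and -0.03 over all genes. Eif3j1 fell in the chamber (-0.40, adjusted p = 0.033), a call lost when any 1 chamber array was left out.

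Among 8 elongation genes, Eef1akmt1, which methylates a lysine of eEF1A, read 5.47, 5.39 and 5.65 in chamber hypoxia, against 6.31 and 6.35 in controls. It read 5.27, 5.37 and 4.95 in hypoxia of experiment 1, against 6.11 and 6.25 in controls, and 5.69, 5.87 and 5.80 in hypoxia of experiment 2, against 6.27 and 6.44 in controls. No arrays overlapped, and the mean difference was -0.79 ± 0.09 (1.73-fold lower, adjusted p = 4.5e-07). The kinase Eef2k read 5.83, 5.58 and 5.65 in chamber hypoxia, against 6.12 and 6.37 in controls. It read 6.05, 5.87 and 6.10 in hypoxia of experiment 1, against 6.40 and 6.29 in controls, and 5.53, 5.79 and 5.80 in hypoxia of experiment 2, against 6.42 and 6.14 in controls. Eef2k was lower on every hypoxia array than in its controls, by 0.49 ± 0.08 in the mean (-0.49, 1.40-fold, adjusted p = 2.8e-05). Its substrate Eef2 read 11.02, 11.01 and 11.00 in chamber hypoxia, against 10.84 and 10.80 in controls. It read 11.26, 11.32 and 11.24 in hypoxia of experiment 1, against 10.81 and 11.04 in controls, and 11.25, 11.36 and 11.20 in hypoxia of experiment 2, against 10.99 and 10.89 in controls. Hypoxia arrays were higher in each set without overlap. Eef2 rose by 0.29 ± 0.10 (1.22-fold, adjusted p = 0.024), a call lost without chamber control 2 (adjusted p = 0.061), experiment 1 control 1 (0.090) or experiment 2 control 2 (0.065). Eef1b2, an exchange factor subunit for eEF1A, rose by 0.16 ± 0.06 (adjusted p = 0.047), and that call was lost without any of 10 arrays. The main carrier of aminoacyl-tRNA, Eef1a1, gave -0.00 ± 0.06 (adjusted p = 0.97).

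The 3 hypoxia sets differed in how many of the 49 genes were called. In the chamber 15 fell and 0 rose, where 23.0% of all genes were called (15.1% lower and 7.96% higher). In experiment 1, 5 rose and 4 fell (all genes 18.3% in either direction, 7.57% higher and 10.7% lower), and in experiment 2, 2 rose and 6 fell (all genes 15.3%, 7.55% higher and 7.79% lower). At an unadjusted p under 0.05, limma gave 2 higher and 19 lower genes in the chamber. The chamber's 0 rises depended on the setting: 2 genes rose and 10 fell after quantile normalisation, 6 rose and 23 fell with array weights (all genes 25.9% higher and 24.4% lower), and 6 rose and 24 fell in a fit on only the chamber arrays (all genes 21.8% and 23.2%). Without chamber control 1 the number called was 8 (13.1% of all genes), and without control 2 it was 6 (11.3%); the calls of Eif4g2, Eef1akmt1, Eif2b1, Eif4ebp2, Eif5 and Eif1a held without any array. Eif2b1 is an example of a gene called in the chamber set alone among the 3: 7.47, 7.65 and 7.48 in hypoxia, against 8.23 and 8.29 in controls (-0.72 ± 0.16, adjusted p = 0.0016), with -0.10 in experiment 1 and -0.35 in experiment 2. Eif3m, a peripheral eIF3 subunit, was called in experiment 1 alone of the 3 sets, at 8.44, 8.66 and 8.21 in hypoxia, against 8.04 and 7.95 in controls (0.44 ± 0.15, adjusted p = 0.042), and the call was lost without any of 4 arrays (adjusted p = 0.085 to 0.24). The median difference of the 49 genes was -0.18 in the chamber, 0.04 in experiment 1 and -0.04 in experiment 2, against 0.07, -0.03 and -0.03 over all genes.

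Tested directly, the hypoxia effect in the chamber differed from that in the incubator for 1 of the 49 genes (2.16% of all genes, 0.376% higher and 1.78% lower). That gene was Eif4a2, whose effect was lower in the chamber by 0.73 ± 0.17 (-0.73, adjusted p = 0.024). The call was lost without chamber control 1 (adjusted p = 0.16), chamber control 2 (0.14), chamber hypoxia array 2 (0.092), experiment 1 control 1 (0.069) or experiment 2 control 2 (0.053). At an unadjusted p under 0.05, limma gave 19 of the 49 genes, 4 with a higher and 15 with a lower effect in the chamber. The median of this difference was -0.17 over the 49 genes, against 0.05 over all genes. Device and set cannot be told apart, since the chamber was used in 1 set. Between experiments 1 and 2 limma called 0 of the 49 effects different (0.327% of all genes, 0.133% higher and 0.194% lower), the lowest adjusted p being 0.28, and 2 reached an unadjusted p under 0.05, both higher in experiment 1.

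**Figure D3:**
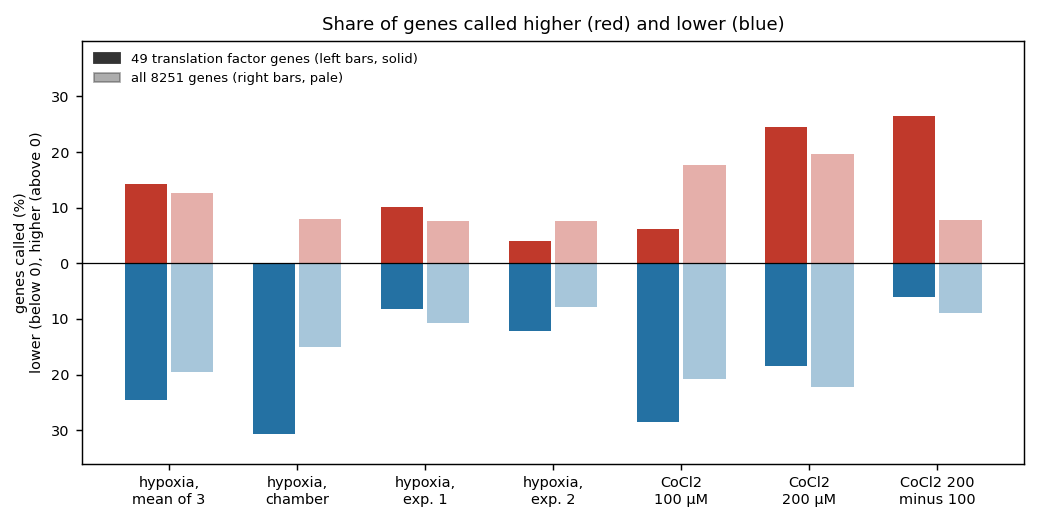
Percentage of genes called higher (above 0) and lower (below 0) among the 49 translation factor genes (solid) and among all 8251 genes (pale), for each hypoxia and CoCl2 comparison. In the chamber no translation factor gene is called higher, and at 200 µM against 100 µM CoCl2 13 are called higher and 3 lower.

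At 100 µM CoCl2, 3 of the 49 genes rose and 14 fell (all genes 38.4% in either direction, 17.6% higher and 20.7% lower). At 200 µM, 12 rose and 9 fell (all genes 42.0%, 19.7% higher and 22.3% lower). Only 7 of the 17 calls at 100 µM and 8 of the 21 at 200 µM held without any single array. The median difference of the 49 genes was -0.15 at 100 µM and 0.06 at 200 µM, against 0.10 and 0.11 over all genes. Between the doses, 13 were higher at 200 µM and 3 lower (all genes 16.7%, 7.83% higher and 8.85% lower), but only 3 of those 16 calls, for Eif2b2, Eif4ebp2 and Eif4g3, held without any single array. Without 100 µM array 1 the number was 9 (17.6% of all genes), without 100 µM array 2 it was 25 (23.9%), and without 200 µM array 2, the array with the lowest Actb difference of the experiment, it was 5 (7.65%). With the Actb difference as a covariate it was 2 (1.87% of all genes), and 15 of the 16 calls were lost. The covariate is fitted from differences within groups, which were largest between the 2 arrays at 200 µM (1.47 and 0.50). It is therefore not a check separate from leaving out 200 µM array 2. The covariate also ended 10 of the 17 calls at 100 µM and 5 of the 21 at 200 µM. At 100 µM 27 genes were called without 100 µM array 2 (50.9% of all genes), and at 200 µM 12 without control 1 (29.1%).

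**Figure D4:**
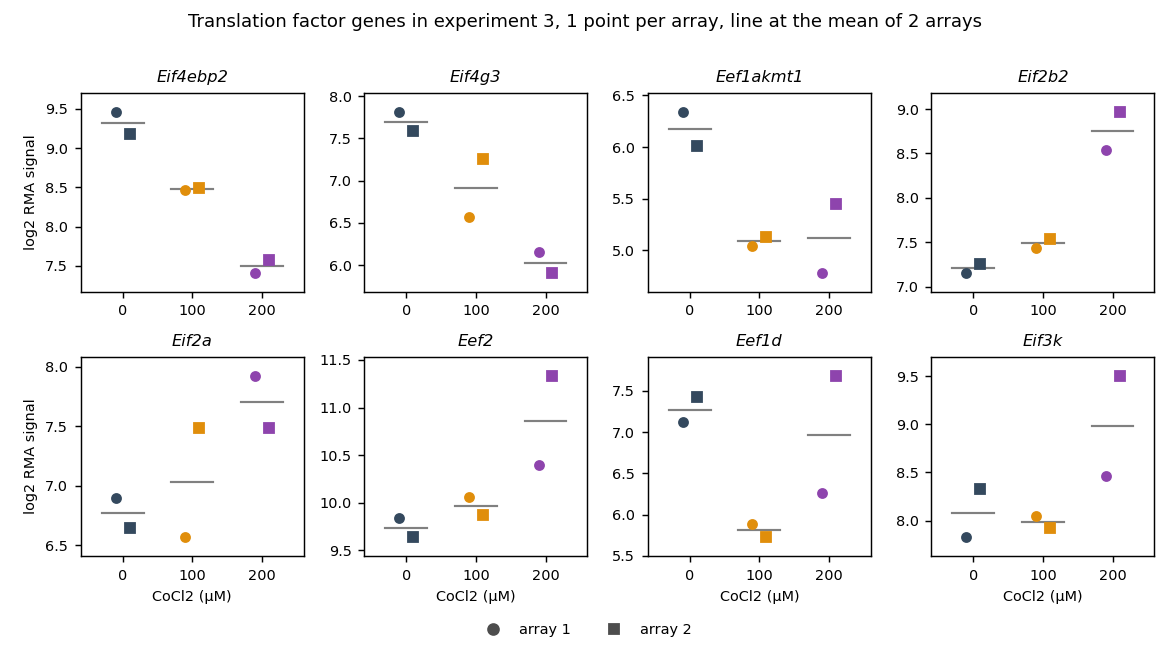
Log2 RMA signal of 8 genes on the 6 arrays of experiment 3 by CoCl2 dose (µM), circles for array 1 and squares for array 2, with a line at the mean of the 2 arrays. Eif4ebp2 and Eif4g3 step down and Eif2b2 up with both arrays, while in Eef2, Eef1d and Eif3k 200 µM array 2 lies well above array 1.

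The 2 lowest differences at 200 µM CoCl2 were in genes of initiation. Eif4ebp2 read 9.46 and 9.18 in controls, 8.46 and 8.49 at 100 µM and 7.41 and 7.58 at 200 µM, with no overlap between neighbouring doses. Its difference from control was -0.84 ± 0.14 at 100 µM (adjusted p = 6.1e-05) and -1.83 ± 0.14 at 200 µM (3.55-fold lower, adjusted p = 6.8e-10), and the step between doses was -0.98 ± 0.14 (adjusted p = 5.2e-05). Again the other probe sets did not follow: at 200 µM the second set gave 0.12 and the dimmest -0.20. The scaffold gene Eif4g3 read 7.81 and 7.58 in controls, 6.57 and 7.25 at 100 µM and 6.15 and 5.91 at 200 µM. It fell at both doses, by 0.79 ± 0.18 at 100 µM (adjusted p = 0.0017) and by 1.67 ± 0.18 at 200 µM (-1.67, 3.18-fold, adjusted p = 1.3e-07). Its 100 µM call was lost without 100 µM array 1 (adjusted p = 0.073), and with the Actb covariate the step between doses was -0.86 (adjusted p = 0.26). Eif4g2 read 7.93 and 7.99 in controls, 7.05 and 7.63 at 100 µM and 7.36 and 7.23 at 200 µM, with -0.62 and -0.66 at the doses. Without 100 µM array 1 the value at 100 µM was -0.33 (adjusted p = 0.17), and with the Actb covariate that call was lost too (-0.62, adjusted p = 0.065).

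Eif2b2, encoding the β subunit of eIF2B, read 7.16 and 7.26 in controls, 7.44 and 7.54 at 100 µM and 8.54 and 8.97 at 200 µM. Both 200 µM arrays stood above all others, and the difference at 200 µM was 1.54 ± 0.13 (2.91-fold, adjusted p = 4.1e-09), while 0.28 at 100 µM was not called. The step between doses was 1.26 ± 0.13 (adjusted p = 1.5e-06), and 0.83 (adjusted p = 0.071) with the Actb covariate. Eif2b4 read 7.22 and 7.13 in controls, 7.19 and 7.38 at 100 µM and 7.51 and 8.00 at 200 µM. It rose at 200 µM by 0.58 ± 0.13 (adjusted p = 0.0014), a call lost without 200 µM array 2 (0.34, adjusted p = 0.053). Eif2a read 6.90 and 6.64 in controls, 6.57 and 7.49 at 100 µM and 7.92 and 7.48 at 200 µM. It rose at 200 µM by 0.93 ± 0.20 (1.91-fold, adjusted p = 0.00069), and by 1.15 without 200 µM array 2. Eif2d read 7.33 and 7.50 in controls, 6.69 and 6.91 at 100 µM and 6.55 and 6.60 at 200 µM, and fell at both doses (-0.62, adjusted p = 0.00049, and -0.84, adjusted p = 1.0e-05). Among the eIF2α kinases, Eif2ak1 read 7.02 and 7.00 in controls, 7.19 and 7.08 at 100 µM and 7.18 and 7.71 at 200 µM, and Eif2ak4 read 4.81 and 4.61, then 4.71 and 4.70, then 4.36 and 4.06 at the same doses. At 200 µM Eif2ak1 rose (0.43 ± 0.13, adjusted p = 0.011) and Eif2ak4 fell (-0.50 ± 0.13, adjusted p = 0.0041), and both calls were lost without 200 µM array 2 (adjusted p = 0.27 and 0.069). With the Actb covariate Eif2ak1 gave 0.20 at 200 µM (adjusted p = 0.22) and 0.45 at 100 µM (adjusted p = 0.033). Eif2ak3 gave 0.24 at 100 µM and 0.15 at 200 µM, neither of them called, although 0.62 at 100 µM was called with the Actb covariate (adjusted p = 0.018).

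Subunits of eIF3 moved unevenly. Eif3l fell by 0.97 ± 0.15 at 100 µM (adjusted p = 2.7e-05), with 10.54 and 10.30 in controls, 9.12 and 9.78 at 100 µM and 9.87 and 9.88 at 200 µM. With the mean of its probe sets that call was lost (adjusted p = 0.067). Eif3a, the largest subunit, read 8.36 and 8.21 in controls, 7.13 and 7.89 at 100 µM and 7.57 and 7.61 at 200 µM. It fell by 0.70 ± 0.19 at 200 µM (adjusted p = 0.0062), lost without control 1 (adjusted p = 0.058). Eif3f read 6.19 and 6.39 in controls, 7.24 and 6.50 at 100 µM and 6.91 and 6.70 at 200 µM. It rose at 100 µM (0.58 ± 0.16, adjusted p = 0.0079) and at 200 µM (0.51 ± 0.16, adjusted p = 0.015), but neither call held without the first array of its dose (adjusted p = 0.31 and 0.12), and with the Actb covariate the value at 100 µM was 0.32 (adjusted p = 0.33). Eif3k read 7.83 and 8.33 in controls, 8.05 and 7.92 at 100 µM and 8.46 and 9.50 at 200 µM, so its rise of 0.90 rested on 200 µM array 2, without which it was 0.38 (adjusted p = 0.072).

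Of the elongation genes, Eef1akmt1 fell at both doses, reading 6.34 and 6.01 in controls, 5.05 and 5.13 at 100 µM and 4.79 and 5.45 at 200 µM. Its differences were -1.09 ± 0.17 (adjusted p = 4.0e-05) and -1.06 ± 0.17 (adjusted p = 3.8e-05), and 0.03 ± 0.17 between doses. With the Actb covariate they were less alike, at -0.60 at 100 µM (adjusted p = 0.029) and -1.40 at 200 µM (adjusted p = 9.8e-07). Eef2 read 9.84 and 9.64 in controls, 10.06 and 9.87 at 100 µM and 10.40 and 11.33 at 200 µM. It rose by 1.12 ± 0.18 at 200 µM (2.18-fold, adjusted p = 3.2e-05), by 0.66 without 200 µM array 2 and by 0.70 with the Actb covariate (adjusted p = 0.0010). In the hypoxia sets, whose Actb differences were small, control arrays read 10.80 to 11.04 for Eef2, above the controls of experiment 3. Set and RNA quality cannot be told apart between these controls, and the cause was not tested. Eef1d, a further exchange factor subunit for eEF1A, read 7.12 and 7.42 in controls, 5.89 and 5.73 at 100 µM and 6.26 and 7.68 at 200 µM. Its difference of -1.46 ± 0.26 at 100 µM (2.76-fold lower, adjusted p = 0.00013) became -0.56 (adjusted p = 0.095) with the Actb covariate, and the step of 1.16 between doses became -0.39 (adjusted p = 0.63). Eef1a2, normally a muscle and neuron form of eEF1A and dim on these arrays, read 5.25 and 5.13 in controls and 5.69 and 5.47 at each dose. It rose by 0.39 at both doses, and each call was lost without control 2 or the first array of the dose. With the Actb covariate the value at 100 µM was 0.21 (adjusted p = 0.37).

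CoCl2 (mean of both doses) and hypoxia (mean of the 3 sets), which share no control arrays, differed for 14 of the 49 genes, 6 higher and 8 lower with CoCl2, where 25.4% of all genes differed (770 higher and 1322 lower of 8251). Eif5 was opposite in the treatments: with CoCl2 it read 9.84 and 10.11 at 100 µM and 9.94 and 10.07 at 200 µM, against 9.63 and 9.61 in the controls of that experiment. It rose by 0.35 at 100 µM and 0.39 at 200 µM. Each call was lost without either control and without array 2 of its dose (0.22 and 0.33). With the Actb covariate both were lost too (adjusted p = 0.055 and 0.082). Eif5 fell in hypoxia, and the difference between the treatments of 0.93 ± 0.12 (adjusted p = 6.5e-06) held without any array. Eif2b4 (0.76 ± 0.14, adjusted p = 0.00024), Eif2b2 (0.70 ± 0.13, adjusted p = 0.00049) and Eef2k (0.61 ± 0.15, adjusted p = 0.0045) were also higher under CoCl2 than under hypoxia. Eef2k gave 0.24 at 100 µM and -0.01 at 200 µM, neither called.

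Lower under CoCl2 than under hypoxia were Eif4g3 (-1.32 ± 0.18, adjusted p = 1.1e-05), Eif4a2 (-0.72 ± 0.15, adjusted p = 0.0011) and Eif3a (-0.72 ± 0.20, adjusted p = 0.0090). Eif3a's call was lost without experiment 3 control 1 (adjusted p = 0.083), and that of Eif3e (-0.84 ± 0.29, adjusted p = 0.039) was lost without any of 12 arrays. Eif4a2 read 9.24 and 9.20 in controls, 8.80 and 9.06 at 100 µM and 9.15 and 9.17 at 200 µM, and it was called at neither dose (-0.29 and -0.06). Of the 19 genes called in hypoxia 9 were also called at 200 µM with the same sign, which is 9 of the 21 called there: Eif4ebp2, Eif4g2, Eef1akmt1, Eif2d and Eif3l lower, and Eef2, Eif2a, Eif2b2 and Eef1b2 higher. Opposite signs were found for Eif2b4, Eif5 and Eif6, 15.8% of the translation factor calls in hypoxia, against 9.24% of those over all genes. The same-sign genes were 47.4% of the translation factor calls in hypoxia, against 56.2% of the 2642 calls over all genes, and 42.9% of those at 200 µM, against 42.8% of 3468, so neither stood out from all genes. For Eif6 the rise at 200 µM (0.56, adjusted p = 0.031) was 0.06 without 200 µM array 2 and 0.08 with the Actb covariate. The 200 µM calls of Eif3l without control 1 (adjusted p = 0.087) and of Eef1b2 with the covariate (0.094) were lost. Eef1a1, Eif4e, Eif4ebp1, Eif5a and Eif5b were among the genes called in none of the 10 comparisons. Of these, Eif4e and Eif5a lay under the 40th percentile of mean signal.

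**Figure D5:**
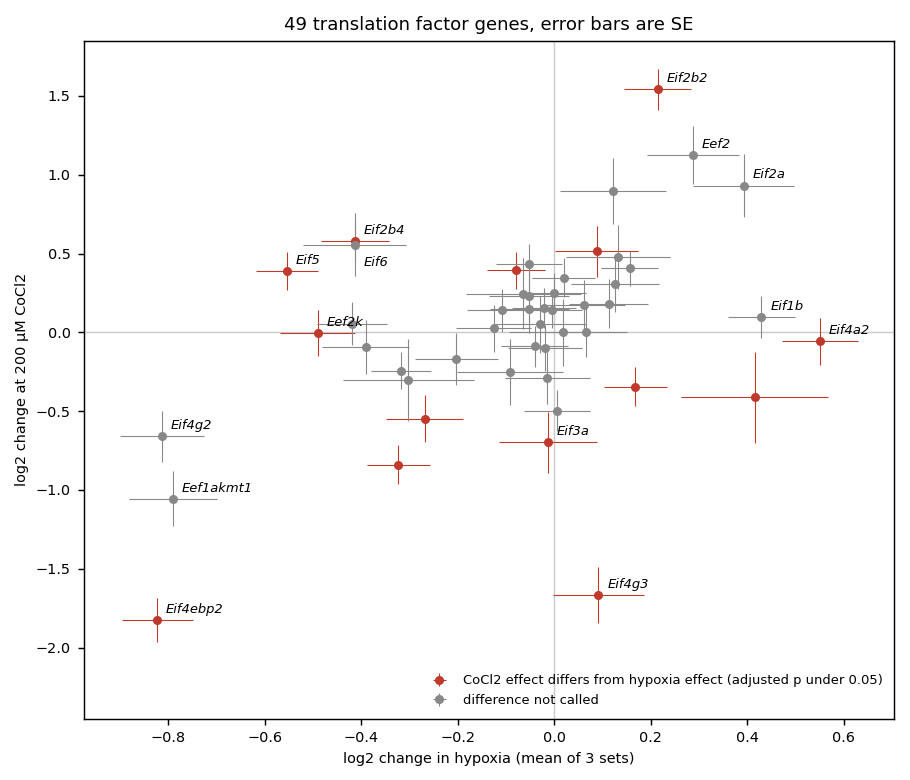
Log2 difference at 200 µM CoCl2 (vertical) against the mean log2 difference in hypoxia (horizontal) for the 49 genes, with standard errors; red marks genes whose effect at both CoCl2 doses on average differed from that of hypoxia (adjusted p under 0.05). Eif4ebp2 is low on both axes, Eif5 and Eif2b4 lie at upper left, and Eif4g3 is low with CoCl2 alone.

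Genes that act next to these factors were counted from lists chosen by function. Of 7 genes for termination, ribosome recycling and poly(A) binding, 1 rose and 4 fell in hypoxia (all genes 12.6% and 19.5%): Paip2, an inhibitor of the poly(A)-binding protein, rose (0.74 ± 0.12), and the recycling factor Abce1 (-0.68 ± 0.07) and the release factors Gspt1 (-0.61 ± 0.07) and Etf1 (-0.41 ± 0.06) fell. At each CoCl2 dose 5 of the 7 fell and 0 rose, where 20.7% of all genes fell at 100 µM and 22.3% at 200 µM; the poly(A)-binding protein gene Pabpc1 gave -0.94 at 100 µM and -0.67 at 200 µM. Of 20 signalling genes that act on the factors, 3 rose and 5 fell in hypoxia, a share near the 32.0% of all genes called. Ddit4, an inhibitor of mTORC1, the kinase complex that phosphorylates 4E-binding proteins, rose by 2.01 ± 0.09 (adjusted p = 1.2e-13), and Pdcd4, which inhibits eIF4A, rose by 0.71 ± 0.08 (adjusted p = 2.1e-07), followed by Ddit3 (0.62 ± 0.11), a transcription factor of the stress response. Dnajc3, an inhibitor of eIF2α kinases, fell by 0.91 ± 0.08 (adjusted p = 3.1e-09), as did Dohh, which completes the hypusine of eIF5A (-0.64 ± 0.10), and the kinase Akt1 (-0.52 ± 0.09). At 200 µM CoCl2 9 of the 20 rose and 4 fell (all genes 19.7% and 22.3%), led by Ppp1r15a (1.84 ± 0.17, adjusted p = 1.5e-08), which directs dephosphorylation of eIF2α, and Ddit3 (1.82 ± 0.21, adjusted p = 3.2e-07). At 100 µM 6 rose and 3 fell (all genes 17.6% and 20.7%).

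Cytosolic aminoacyl-tRNA synthetases and their partners, which charge tRNAs for elongation, gave 2 rises and 10 falls among 21 genes in hypoxia (all genes 12.6% and 19.5%). Wars (-0.73 ± 0.08, adjusted p = 2.2e-07), for tryptophan, fell in each set, whereas Lars (-0.50 ± 0.06, adjusted p = 2.1e-06), for leucine, gave -0.85 in the chamber and -0.08 in experiment 1. Aimp2, a scaffold of the synthetase complex (0.29 ± 0.06), and Qars, for glutamine (0.25 ± 0.08), were the genes that rose. In the chamber 14 of the 21 fell and 0 rose (all genes 15.1% lower and 7.96% higher), and in experiment 1, 1 fell and 2 rose (all genes 10.7% and 7.57%). In experiment 2, 5 fell and 0 rose (all genes 7.79% and 7.55%), so falls were not limited to the chamber. With CoCl2, 9 fell and 0 rose at 100 µM (all genes 20.7% and 17.6%), and 4 fell and 5 rose at 200 µM (all genes 22.3% and 19.7%); Farsb, a subunit for phenylalanine, gave -1.68 at 100 µM. Of 5 mitochondrial translation factors 2 fell in hypoxia, Tsfm (-0.51 ± 0.07) and Gfm1 (-0.36 ± 0.07), both elongation factors, and at 200 µM CoCl2 the initiation factor Mtif2 fell by 1.40 ± 0.15 (adjusted p = 1.9e-07).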

How the data were processed

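The arrays are Affymetrix U74Av2. The deposited log2 values are RMA signals, 1 per probe set and array, made by the authors with GCOS 1.2 and RMA per the submitters' processing notes; for the version of RMA and its probe definition, the sources used here give nothing. They were used without further scaling. Of 12488 probe sets, 66 are Affymetrix controls, 11251 have a gene annotation and 396 name several genes; 10833 with 1 gene gave 8251 genes, each by its set with the highest mean. Entrez identifiers gave a current symbol for 10817 of these sets; 16 stayed under an older one.

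Group means were estimated from all 21 arrays together in limma 3.58.1, under R 4.3.3 (12 residual degrees of freedom, 8.91 prior), and contrasts were tested two-sided with Benjamini-Hochberg adjustment over 8251 genes, called at an adjusted p under 0.05. The fit was tested on simulated data. Alternatives were other scalings, probe set rules, variance models, the Actb covariate, the replicate block and leaving out each array. Leaving out suffixed probe sets was added after seeing the data. The genes named are the called members with the highest and lowest log2 differences (up to 6 each way for the hypoxia mean and for 200 µM CoCl2 with the same sign at 100 µM, up to 3 for other comparisons and for each list), and always the eIF2α kinases, Eif4ebp1, Eif4ebp2, Eif4e, Eef1a1, Eef2 and Eef2k; Eif6, Eif2b1, Eif2d, Eef1b2 and other genes outside that rule were chosen after their values were seen. The members and all lists were chosen with earlier results of these data known. The number of arrays limits the precision, and no detection calls were used, so 10 members under the 40th percentile of mean signal, 2 of them under the 5th, may be near background.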

Additional observations from a re-analysis of the deposited data

Results flagged for a closer look

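Eif4a2 was selected because its hypoxia effect differed between the chamber and the incubator by test: it was lower in the chamber by 0.73 (-0.73 ± 0.17, adjusted p = 0.024), with 0.06 in the chamber, 0.90 in experiment 1 and 0.69 in experiment 2.

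Among the neighbouring genes, Atf4, the transcription factor whose mRNA is translated when eIF2α is phosphorylated, had an effect lower in the chamber than in the incubator (-1.05 ± 0.22, adjusted p = 0.016), with -0.90 in the chamber, 0.23 in experiment 1 and 0.07 in experiment 2. The phosphatase subunit genes Ppp1r15a (-0.76 ± 0.19, adjusted p = 0.043) and Ppp1r15b (-0.56 ± 0.13, adjusted p = 0.032) differed in the same direction. So did the tRNA synthetase genes Tars (-0.72 ± 0.16, adjusted p = 0.025), Iars (-0.66 ± 0.17, adjusted p = 0.046), Cars (-0.62 ± 0.15, adjusted p = 0.031) and Lars (-0.53 ± 0.14, adjusted p = 0.049). Device and set cannot be told apart in these differences. Ddit4 rose in all 3 sets, by 2.33 in the chamber, 1.17 in experiment 1 and 2.53 in experiment 2, and its effect differed between experiments 1 and 2 (-1.36 ± 0.22, adjusted p = 0.0043). No group held 4 or more arrays, so single arrays could not be tested as outliers.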

How the results depend on the processing

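Of 59 calls of named genes, 36 held under every alternative and without any single array. Median centring lost 0 of the 59, array weights 6, fits on only the arrays compared 8, and the Actb covariate 8, with 2 more reversed. The number of the 49 genes called in the chamber was 29 with array weights (50.3% of all genes) and 30 on only the arrays compared (45.0%). In experiment 1 it was 18 and 15 (25.4% and 20.2% of all genes), in experiment 2 14 and 14 (1758 and 1653 of 8251 genes), at 100 µM CoCl2 11 and 5 (19.6% and 13.8%), and between doses 3 and 2 (2.93% and 1.19%), and 2 with the Actb covariate (1.87%). Chamber against incubator gave 1 gene, 2 with median centring or dim genes left out, 0 after quantile normalisation, 20 with array weights (22.7% of all genes), 14 on only the arrays compared (12.5%) and 5 with the covariate (4.79%). Replicate numbers were not taken to pair arrays, since residuals of same-numbered arrays correlated between -0.37 and 0.235; with the replicate block 3 of the 59 calls were lost, and it gave 17 genes for hypoxia, 12 in the chamber, 7 and 8 in experiments 1 and 2, 16 and 21 at 100 and 200 µM, 15 between doses, 1 and 0 for the differences between sets and 12 for CoCl2 against hypoxia. Leaving out 1 array gave 16 to 19 genes for hypoxia, 6 to 11 in the chamber, 4 to 9 and 5 to 9 in experiments 1 and 2, 12 to 27 at 100 µM, 12 to 17 at 200 µM, 5 to 25 between doses, 0 to 3 for chamber against incubator, 0 to 0 between experiments 1 and 2 and 8 to 18 for CoCl2 against hypoxia. Reversed values were Eef1d (-0.39) and Eif3k (-0.00023) between doses with the Actb covariate, and Eif4e at 100 µM (-0.31, adjusted p = 0.031) with suffixed probe sets left out, which puts another probe set in its place. The cause of the other changes was not tested. With 2 or 3 arrays per group, and in experiment 3 with larger Actb 3′ minus 5′ differences, small changes of dim genes may go uncalled.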
